A study of Mus musculus with 11 samples.

Results

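Growth hormone signals to hepatocytes through its receptor and the transcription factor STAT5b, and 8 genes of that pathway were followed through acetaminophen (APAP) injury of the mouse liver. They were listed by symbol and found by symbol in the gene column of the deposited matrices, where all 8 of 8 were present among 31053 genes. Ghr encodes the receptor, Stat5b the transcription factor, Cish and Socs2 the feedback inhibitors that STAT5 switches on, and Elovl3, Hsd3b5, Cyp4a12a and Cyp4a12b enzymes that are expressed mainly in male liver. All 8 passed the filter on low counts and were tested with 14821 genes over time.

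Binding of growth hormone to its receptor activates the kinase JAK2, which phosphorylates STAT5b, and the activated factor enters the nucleus and turns on target genes. CIS (Cish) and SOCS2 are among the fastest of these targets and dampen the receptor, so their transcripts are widely read as a sign of recent STAT5 activity. In male rodents the pituitary releases the hormone in pulses, and the enzymes listed here depend on that pattern. ELOVL3 elongates very long chain fatty acids, HSD3B5 is a steroid dehydrogenase family member of male liver, and the CYP4A12 enzymes hydroxylate fatty acids.

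The assay, Visium, reads RNA in place from a tissue slice laid over an array of barcoded spots, each of which covers several cells. Of 11 snap-frozen liver sections, 3 were uninjured (0 h, numbered 2, 3 and 4) and 8 followed an overdose of APAP, which damages pericentral hepatocytes: a pair at 24 h and another at 36 h, each lettered A and B, and 4 at 48 h, lettered A, B, C and D. By the study's methods the mice were C57BL/6JCrl, male unless described otherwise, and 8 to 12 weeks old. They were fasted before APAP was injected into the peritoneum. For spatial data of mouse liver the methods give n = 1 per time point, and which mouse each section came from is not stated. Whether the 0 h mice were fasted too is not given in the sources used here and bears on every value set against 0 h. n therefore counts sections, which may be technical repeats, p-values measure only the spread between them, and mouse and time point cannot be told apart. The mice were kept on a cycle of 12 h light and 12 h dark, and clock times are not given in the sources used here. Sections at 36 h may thus come from another phase of the day than those at 24 h and 48 h. Time of day and time after APAP cannot be told apart. Transcripts of Xist, made from the inactive X of females, were at or under 0.0314 UMIs per 1000000 in every section. Sections held 31292663 to 67045372 UMIs (unique transcript counts) in 1490 to 3466 spots. Levels are given as CPM, UMIs per 1000000 of a section total scaled by TMM (trimmed mean of M values, which assumes that most genes do not change), and are compared only within a gene. A gene was called when edgeR's quasi-likelihood test gave a Benjamini-Hochberg adjusted p under 0.05.

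In GRCm38, Ghr (ENSMUSG00000055737) lies on chromosome 15 from 3317760 to 3583492 on the minus strand. Stat5b (ENSMUSG00000020919) lies on chromosome 11 from 100780731 to 100850724, also on the minus strand. Cish (ENSMUSG00000032578) spans 107296026 to 107302784 of chromosome 9 on the plus strand, and Socs2 (ENSMUSG00000020027) spans 95385362 to 95417180 of chromosome 10 on the minus strand. Elovl3 (ENSMUSG00000038754) occupies 46131897 to 46135694 of chromosome 19 on the plus strand, and Hsd3b5 (ENSMUSG00000038092) 98618634 to 98630252 of chromosome 3 on the minus strand. Cyp4a12a (ENSMUSG00000066071) and Cyp4a12b (ENSMUSG00000078597) are neighbours on chromosome 4, from 115299046 to 115332815 and from 115411624 to 115439034, both on the plus strand. Their longest transcripts matched at 2355 of 2393 aligned bases (98.4%), so reads may have been assigned to either copy and each gene's own level is uncertain. All 8 are annotated as protein coding.

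Promoter windows were searched for TTCNNNGAA, letters that STAT5 binds, and the part of such letters in the members' changes was not tested. RefSeq windows of 300 bases, 250 before to 50 after each start (GRCm38.p6), were found for 4 of the 8 genes (Ghr, Stat5b, Cish and Hsd3b5), in 6 windows, 1 per RefSeq start. That of Hsd3b5 (98645485 to 98645784 on chromosome 3) lies at a RefSeq start well upstream of 98630252, the 5′ end of the gene in the annotation given above. The other members are Elovl3, Socs2, Cyp4a12a and Cyp4a12b. The 32851 windows used as background leave out 1 chromosome, which holds none of the members. The letters TTCNNNGAA, which read the same on either strand, occurred in 8.3% of them and in 1 of the 6. That window belongs to Cish (chr9:107296409-107296708, plus strand). It holds the letters 2 times, at positions 1 to 9 and 12 to 20 counted from the RefSeq start as 1. It begins downstream of 107296026, the 5′ end of Cish in the annotation given above. The TATA letters TATAAA, searched on both strands, occurred in 13.6% of the background windows and in 1 of the 6. It is the downstream window of Ghr (chr15:3581793-3582092, minus strand), with the letters 188 bases before the start on the opposite strand. These windows are printed because they hold the matches, which are in capitals. A match describes letters and is not a shown binding site, and no match says only that these letters are not in the window.
Cish: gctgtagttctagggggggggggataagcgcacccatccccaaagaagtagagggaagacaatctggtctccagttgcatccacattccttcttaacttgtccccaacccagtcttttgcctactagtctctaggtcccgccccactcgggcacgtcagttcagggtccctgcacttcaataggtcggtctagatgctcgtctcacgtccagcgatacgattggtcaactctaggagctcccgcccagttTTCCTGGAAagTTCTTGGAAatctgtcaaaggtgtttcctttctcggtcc
Ghr: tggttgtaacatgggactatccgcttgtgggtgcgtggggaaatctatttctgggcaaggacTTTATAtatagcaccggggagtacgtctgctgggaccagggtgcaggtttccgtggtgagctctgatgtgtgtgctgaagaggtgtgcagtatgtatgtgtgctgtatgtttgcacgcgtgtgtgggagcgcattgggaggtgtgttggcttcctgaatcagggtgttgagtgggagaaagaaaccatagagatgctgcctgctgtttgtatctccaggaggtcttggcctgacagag

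Against uninjured liver, no member was called higher at any time. At 24 h, 5 of the 8 were called lower, where 18.6% of all tested genes were called lower. At 36 h it was 6 of 8 with a background of 12.4%, and at 48 h 5 of 8 with 20.9%. The median log2 fold change of the 8 genes was -2.63, -3.38 and -2.16 at 24, 36 and 48 h, and that of all tested genes 0.05, 0.05 and 0.01. Ghr, Stat5b, Elovl3, Cyp4a12a and Cyp4a12b were called at all 3 times, Cish at 36 h, and Hsd3b5 and Socs2 at none. Fewer hepatocytes and less RNA per hepatocyte cannot be told apart in such sums. The summed level of 6 hepatocyte genes (Alb, Ttr, Hp, Hnf4a, Apoa1 and Cyp2e1) was 109743 to 114734 CPM at 0 h and 72890 to 99065 CPM in the injured sections, and its part in these falls was not tested.

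**Figure D1:**
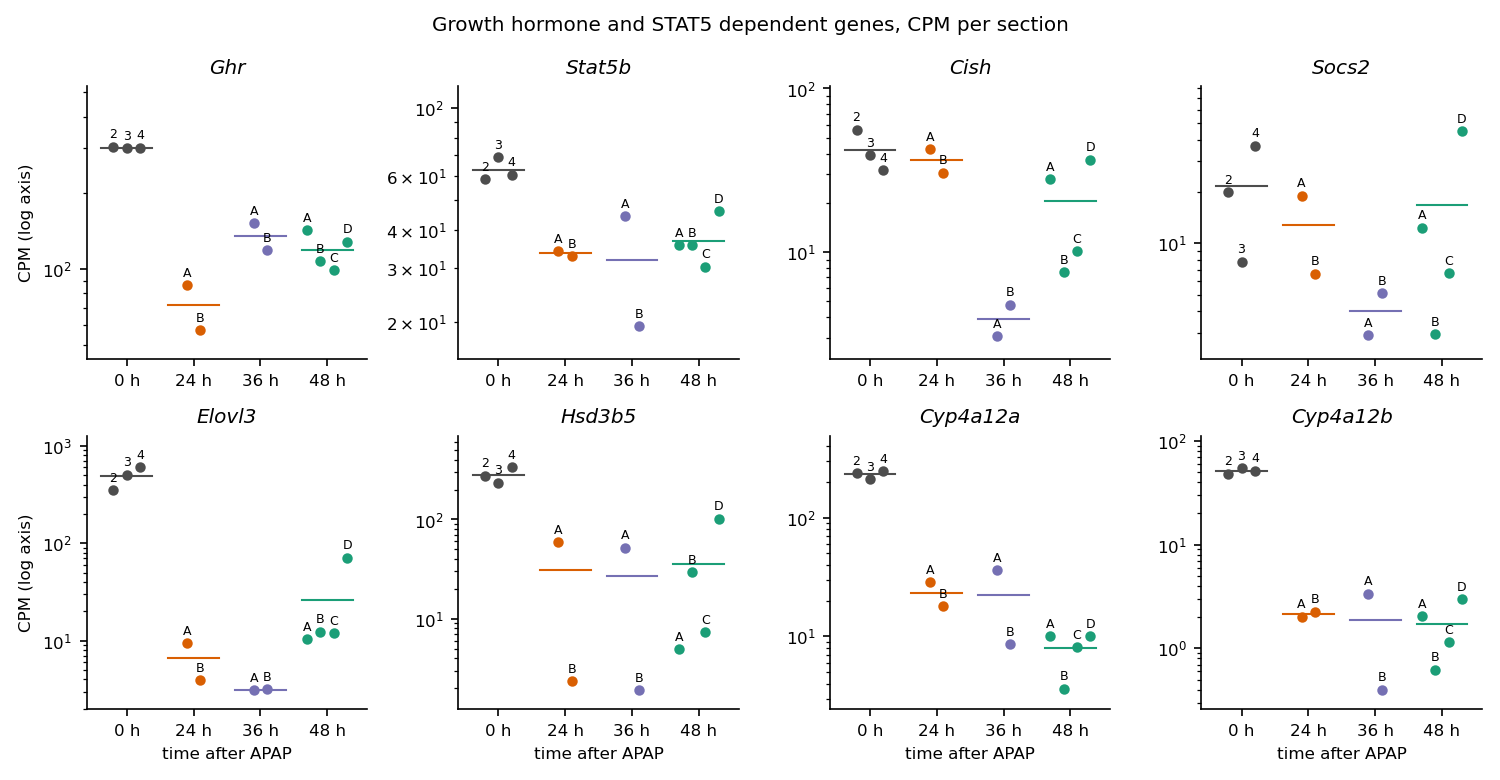
CPM of the 8 genes on log axes, a point per section (labelled by replicate) and a bar at the group mean, for 0 h (n = 3), 24 h (n = 2), 36 h (n = 2) and 48 h (n = 4). All injured sections lay below all 0 h sections for Ghr, Stat5b, Elovl3, Hsd3b5, Cyp4a12a and Cyp4a12b, whereas those of Cish and Socs2 overlapped with 0 h at 24 h and 48 h.

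Ghr, the receptor, had nearly the same level in the 3 uninjured sections, at 304, 300 and 302 CPM. It measured 86.1 and 57.3 CPM at 24 h, 152 and 118 CPM at 36 h, and 142, 107, 99.1 and 128 CPM in sections A to D at 48 h. Every injured section lay below every uninjured one, and the 24 h sections were the lowest of all. The fall was 4.21-fold at 24 h (-2.07 on the log2 scale, SE 0.214, edgeR adjusted p = 7.47e-05), 2.24-fold at 36 h (-1.16, adjusted p = 0.00292) and 2.54-fold at 48 h (-1.34, adjusted p = 0.000149). Levels at the later times lay above those at 24 h. Ghr was higher at 36 h than at 24 h by 0.91 on the log2 scale (edgeR adjusted p = 0.0224, where 7.05% of genes were called higher) and higher at 48 h than at 24 h by 0.73 (adjusted p = 0.0149, 16.3% called higher). Without 24 h B these rises were 0.65 and 0.47 and neither was called, and without 36 h A the former was 0.72 and not called. The former was also not called with only the sections of those times in the fit (0.93), with the section letter as a block (0.93), with sections A and B alone (0.92) or with hepatocyte-gene UMIs as the library size (0.74). Per 10000 UMIs of Alb, Ttr, Apoa1 and Hnf4a, genes of hepatocytes, Ghr had 27.8 to 28.6 UMIs in uninjured tissue and 7.79 to 20.8 after injury, so all 8 injured sections remained below 0 h on that scale.

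Stat5b, which carries the signal to the nucleus, fell by less. Its level was 58.6, 69.1 and 60.5 CPM at 0 h, 34.2 and 33.0 CPM at 24 h, 44.5 and 19.4 CPM at 36 h, and 35.7, 35.7, 30.4 and 46.0 CPM at 48 h. No injured section reached the uninjured range, and the pair at 36 h differed most. The log2 fold changes of -0.90, -0.97 and -0.76 were called at 24, 36 and 48 h (SE 0.288, 0.289 and 0.232, edgeR adjusted p of 0.0286, 0.0299 and 0.0222). Those calls depended on the scaling. With section totals left unscaled by TMM they were lost at -0.58, -0.52 and -0.24, and with hepatocyte-gene UMIs as the library size at -0.30, -0.50 and -0.22. Leaving out 36 h B (-0.50) or any of the 0 h sections ended the call at 36 h, where the change was -1.70 without 36 h A, and the call at 24 h was lost without 24 h A, 24 h B or 0 h 3. At 48 h it was lost without 0 h 3, 48 h B or 48 h C.

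Cish, the feedback inhibitor with the paired STAT letters printed above, did not differ detectably at 24 h and was far lower at 36 h. It measured 56.0, 39.2 and 31.5 CPM at 0 h and 42.7 and 30.6 CPM at 24 h, where the groups overlapped. At 36 h it stood at 3.07 and 4.77 CPM, below every other section, and the part of time of day in this was not tested. At 48 h sections A and D were at 28.0 and 36.7 CPM, close to 0 h, and sections B and C at 7.57 and 10.2 CPM. Cish fell 10.8-fold at 36 h (-3.43 on the log2 scale, SE 0.709, edgeR adjusted p = 0.0073) and was also lower at 36 h than at 24 h by 3.23 on the log2 scale (adjusted p = 0.0211, where 8.55% of genes were called lower). At 24 h the change of -0.20 did not pass, and its sign turned to 0.12 under total-count scaling and to 0.41 with hepatocyte-gene UMIs as the library size. At 48 h it was -1.03 (adjusted p = 0.114), called at -1.47 without 48 h D. Without 36 h A or 36 h B the call at 36 h was lost at -3.15 and -3.78 (adjusted p of 0.0571 and 0.0562), which leaves 1 section in that group. The call between 36 h and 24 h was lost without any of the 4 sections it compares, at -2.95 to -3.54.

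Socs2, the second inhibitor, varied widely between sections of a group. Its level was 19.8, 7.80 and 37.1 CPM at 0 h, 18.9 and 6.64 CPM at 24 h, 2.90 and 5.11 CPM at 36 h, and 12.3, 2.94, 6.68 and 45.0 CPM at 48 h. Of the 8 injured sections 5 lay below all 0 h sections, and 48 h D was the highest of all 11. No contrast was called, with log2 fold changes of -0.74 at 24 h, -2.42 at 36 h and -0.36 at 48 h (SE 1.03, 1.15 and 0.836, edgeR adjusted p of 0.599, 0.139 and 0.753). The value at 48 h changed sign to 0.18 under total-count scaling, to 0.22 with hepatocyte-gene UMIs as the library size and to 0.28 without 0 h 4. Within 48 h the order of the sections was D, A, C, B for both Socs2 and Cish, whereas at 0 h Socs2 was highest in section 4 and Cish in section 2.

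Elovl3, the fatty acid elongase of male liver, showed the deepest fall of the 8 genes at 24 h and 36 h. It stood at 351, 504 and 608 CPM at 0 h, 9.41 and 3.92 CPM at 24 h, 3.10 and 3.17 CPM at 36 h, and 10.3, 12.3, 11.9 and 71.1 CPM in sections A to D at 48 h. The highest injured section, 48 h D, was still far below the lowest uninjured one. The fall was 72.5-fold at 24 h (-6.18 on the log2 scale, SE 1.07, edgeR adjusted p = 0.00159), 156-fold at 36 h (-7.28, adjusted p = 0.00223) and 18.5-fold at 48 h (-4.21, adjusted p = 0.00127). Without 48 h D, the last value was -5.40, and without 24 h A the first was -6.96. From 36 h to 48 h Elovl3 was higher by 3.08, which was not called (adjusted p = 0.102). Without 48 h D that difference was 1.88 and was called (adjusted p = 0.0426), and DESeq2 on all sections called 3.10 (adjusted p = 0.00689).

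Hsd3b5, the steroid dehydrogenase, was lower after injury by very different amounts in different sections. Its level was 277, 235 and 336 CPM at 0 h. Sections A and B measured 59.1 and 2.36 CPM at 24 h and 52.2 and 1.91 CPM at 36 h, beside 4.97, 29.5, 7.36 and 102 CPM in 48 h A to D. All 8 injured sections lay below all 3 uninjured ones, yet within 24 h the sections differed 25.0-fold and within 36 h 27.3-fold. No contrast was called, at log2 fold changes of -3.19, -3.39 and -2.97 (SE 1.73, 1.75 and 1.30, edgeR adjusted p of 0.166, 0.170 and 0.0893). Without 48 h D the change at 48 h was -4.35 and was called (adjusted p = 0.0305).

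The neighbours Cyp4a12a and Cyp4a12b fell together. Cyp4a12a was at 238, 211 and 248 CPM at 0 h, 28.6 and 18.0 CPM at 24 h, 36.2 and 8.65 CPM at 36 h, and 10.1, 3.62, 8.15 and 10.1 CPM at 48 h. Cyp4a12b was at 48.2, 54.7 and 51.7 CPM at 0 h and between 0.399 and 3.36 CPM in the 8 injured sections. Neither overlapped with 0 h in any injured section. The fall of Cyp4a12a was 9.94-fold at 24 h, 10.4-fold at 36 h and 29.0-fold at 48 h (log2 fold changes of -3.31, -3.37 and -4.86, edgeR adjusted p of 0.00239, 0.0045 and 9.6e-05). Cyp4a12b fell 24.1-fold, 27.4-fold and 29.7-fold (-4.59, -4.78 and -4.89, adjusted p of 0.00119, 0.0025 and 0.000158). The values at 36 h rest on a pair of unlike sections, with Cyp4a12b at 3.36 and 0.399 CPM. Without 36 h A they were -4.75 for Cyp4a12a and -7.01 for Cyp4a12b, and without 36 h B -2.68 and -3.94, all of them called. Cyp4a12a was lower at 48 h than at 24 h by 1.55 on the log2 scale (adjusted p = 0.0383, where 17.8% of genes were called lower), a call lost when any of 8 sections was left out, with values from -1.18 to -1.84. These sections were all 3 at 0 h, both at 24 h, and 48 h A, B and C.

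**Figure D2:**
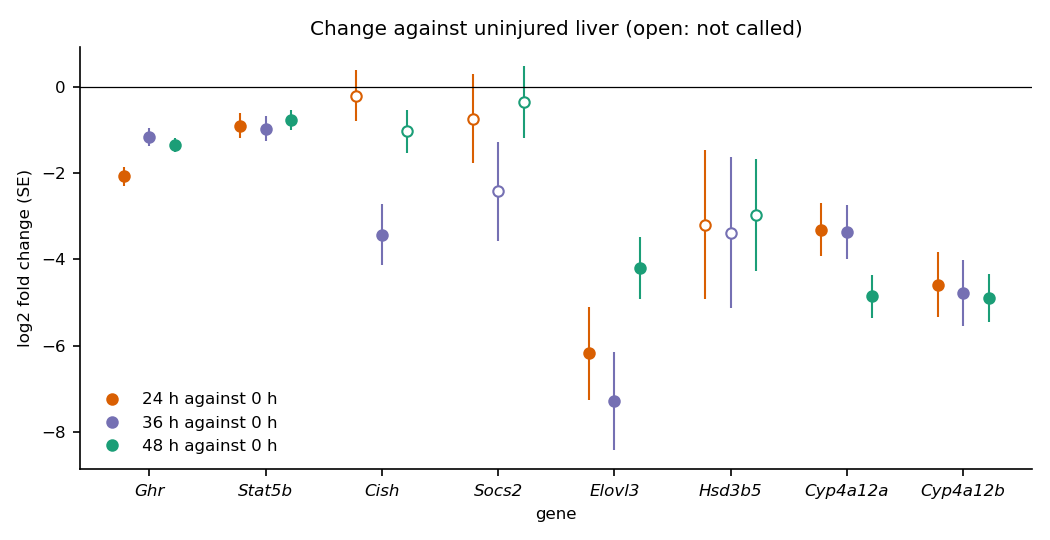
Log2 fold change against 0 h (y axis, bars are SE from the fit) for the 8 genes (x axis) at 24, 36 and 48 h. Filled points were called, and open points, those of Socs2 and Hsd3b5 at every time and of Cish at 24 h and 48 h, were not. Elovl3 at 36 h lies lowest, at -7.28.

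Between 36 h and 48 h no member was called, where edgeR called 3.05% of all genes in either direction. The members' differences ranged from -1.49 for Cyp4a12a to 3.08 for Elovl3 on the log2 scale. DESeq2 called 2 of them, Elovl3 and Cish, the latter at 2.41 (adjusted p = 0.0034).

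The share of spots with a UMI followed the section levels. With every spot thinned to 2000 UMIs, Elovl3 was found in 42.4%, 52.2% and 59.0% of spots at 0 h. It was found in 0.344% to 2.75% of spots in 7 injured sections and in 15.2% in 48 h D, the section with the highest injured level. Without thinning the shares were 96.9% to 98.4% at 0 h, 5.06% to 33.4% in those 7 sections and 76.6% in 48 h D. The thinned share for Ghr was 38.6% to 40.2% at 0 h, 9.47% and 16.0% at 24 h, and 21.1% to 28.6% later. Hsd3b5 was in 30.5% to 37.3% of thinned spots at 0 h and in 0.344% to 20.8% after injury, with 48 h D again the highest. In that section 9.69% of thinned spots held Socs2, above the 1.56% to 6.14% of the 0 h sections. A share of spots is not a share of expressing cells, because a spot holds several cells and RNA can spread between spots.

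**Figure D3:**
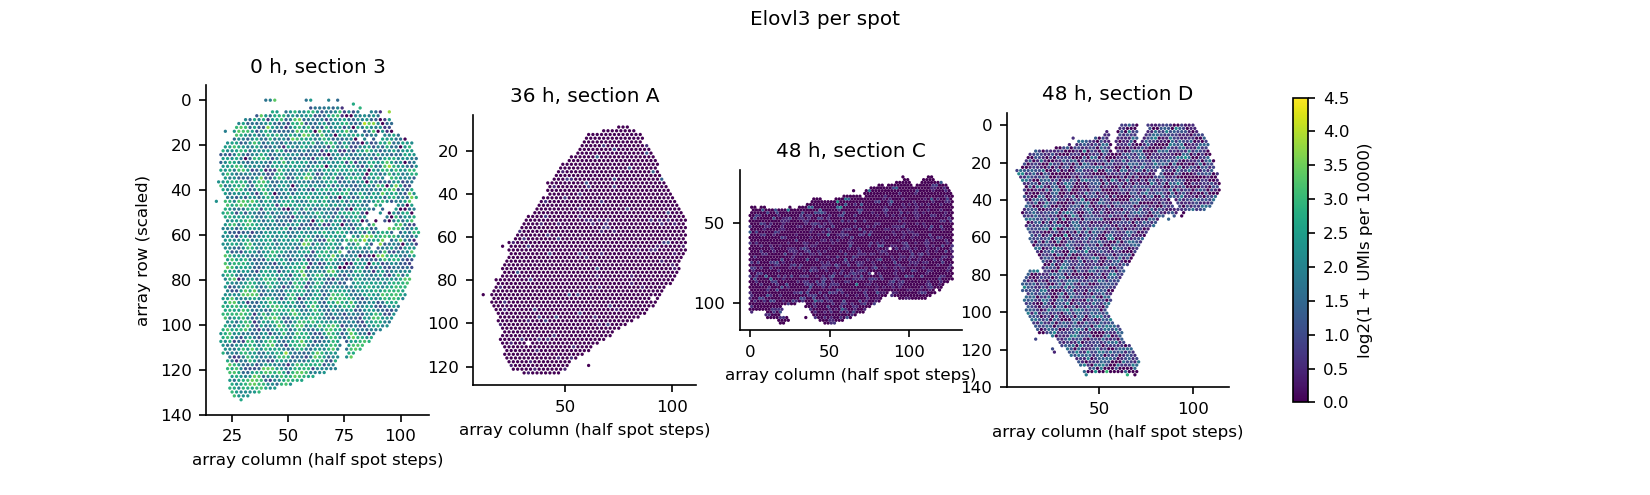
Elovl3 in each spot of 4 sections, placed by array column and row, coloured by log2 of 1 plus UMIs per 10000 in the spot. Spots at 0 h (section 3) are bright in patches, those of 36 h A and 48 h C are nearly all dark, and those of 48 h D are of intermediate brightness across the whole section.

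Other genes of growth hormone signalling were counted from a list of 18 that includes Ghr, Stat5b, Cish and Socs2. At 24 h, 5 were called higher (23.1% of all genes) and 3 lower (18.6% of all genes). Those called higher later numbered 2 at 36 h (16.8% of all genes) and 4 at 48 h (23.3%), beside 4 (12.4% of all genes) and 3 (20.9%) called lower. The number called lower was 1 at 24 h without 24 h B and 1 at 36 h without 36 h B, 2 at 36 h without any of the 0 h sections, and 1 at 48 h without 0 h 3 or 48 h C. At 36 h the number called higher was 8 under total-count scaling and 1 without 0 h 3, 0 h 4 or 36 h B. Jak2, the receptor's kinase, was called at no time, at 9.91, 9.64, 9.10 and 9.97 CPM on average at 0, 24, 36 and 48 h. Socs3, a feedback inhibitor best known for answering interleukin-6 and STAT3, was at 3.90, 2.26 and 2.57 CPM at 0 h and rose to 16.8 and 34.7 CPM at 24 h, a change of 3.14 on the log2 scale (edgeR adjusted p = 0.000188). It was still higher at 48 h, by 1.54. Stat3 itself rose by 0.86 at 24 h. Sirpa, a receptor of phagocytes that recruits phosphatases, was higher by 0.72, 0.94 and 1.82 on the log2 scale at 24, 36 and 48 h, and Ptpn1, a phosphatase that acts on JAK2, by 0.87, 0.59 and 0.70. Sh2b1, an adaptor of JAK2, fell by 0.34 at 48 h, which turned to 0.18 under total-count scaling and 0.20 with hepatocyte-gene UMIs as the library size. The calls of Sirpa at 24 h, Ptpn1 at 36 h and Sh2b1 were each lost without some section, at 0.58 to 0.65, 0.41 to 0.60 and -0.35 to -0.31. A list of 4 phagocyte genes summed to 409 to 434 CPM at 0 h and 448 to 1326 CPM after injury.

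Of the STAT5 targets of growth, Igf1, the circulating growth factor that the hormone induces, had the smallest of the called falls. It measured 748, 732 and 813 CPM at 0 h and 468 to 561 CPM in the 8 injured sections, with no overlap. Its log2 fold changes were -0.58, -0.68 and -0.51 (edgeR adjusted p of 0.00152, 0.00168 and 0.000882), and none of the 3 was called under total-count scaling (-0.25, -0.24 and 0.02) or with hepatocyte-gene UMIs as the library size (0.02, -0.25 and 0.04). Igfals, which holds IGF1 in the circulation, changed by -1.14 at 24 h and by -0.67 at 48 h, and was at -0.71 and not called at 24 h without 24 h B. Igfbp3, a binding protein made largely outside hepatocytes, was at 16.7 to 18.0 CPM at 0 h, fell to 1.18 and 2.17 CPM at 24 h, a change of -3.42 on the log2 scale (edgeR adjusted p = 0.000528), and was higher than at 0 h by 0.96 at 48 h. The 48 h calls of Igfals and Igfbp3 were each lost without several sections, at -0.69 to -0.55 and 0.81 to 0.98. Of these 7 listed targets, Cish, Socs2, Bcl6 and Onecut1 included, 3 were called lower at 24 h (18.6% of all genes) and 2 at both later times (12.4% and 20.9%), and 1 was called higher at 36 h and at 48 h (16.8% and 23.3% of all genes).

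**Figure D4:**
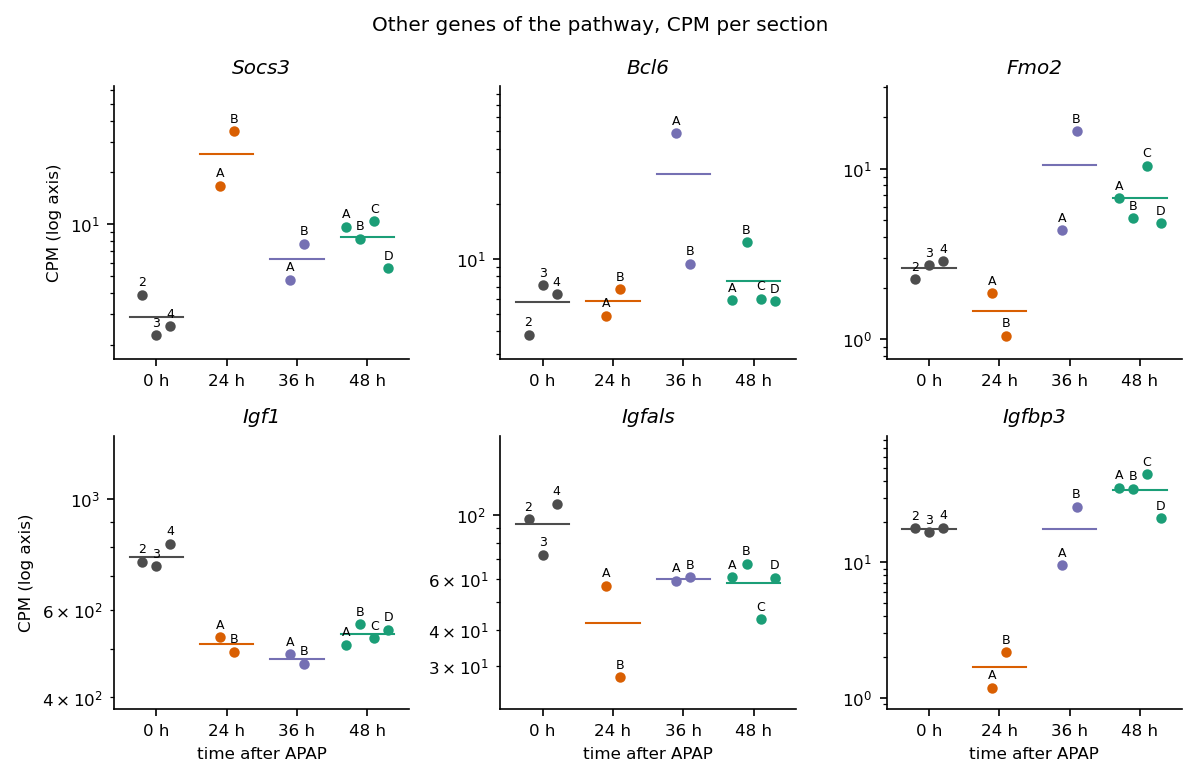
CPM on log axes of 6 other genes, a point per section (labelled by replicate) with a bar at the group mean, by time after APAP. Socs3 is high at 24 h, Bcl6 in 36 h A and Fmo2 in 36 h B, whereas Igf1 sits at 468 to 561 CPM in all injured sections against 732 to 813 at 0 h.

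Among 12 transcription factors listed here as regulators, none was called at 24 h, where 23.1% of all genes were called higher and 18.6% lower. Those called higher numbered 3 at 36 h (16.8% of all genes) and 1 at 48 h (23.3%), and those called lower 1 (12.4%) and 3 (20.9%). The number called higher at 36 h was 0 without 0 h 2 and 1 without 0 h 4 or 36 h A, and the number called lower at 48 h was 0 under total-count scaling and with hepatocyte-gene UMIs as the library size. Bcl6, a repressor that binds many STAT5 sites, was at 3.83 to 7.16 CPM at 0 h and at 48.8 CPM in 36 h A and 9.42 CPM in 36 h B. Its rise of 2.33 at 36 h (edgeR adjusted p = 0.0174) was lost at 0.70 without 36 h A and at 2.10 without 0 h 2. Nr1i3, the receptor CAR, rose by 0.71 at 36 h and 0.48 at 48 h. Cux2, a factor of female liver below the level set for naming and chosen after its values were seen, was at 2.74 CPM in 36 h B and at or under 0.638 CPM in every other section, and its rise of 2.69 at 36 h was 0.02 without 36 h B. Foxa2 changed by -0.75 at 36 h, and Cebpa, Foxa3 and Rxra by -0.77, -0.75 and -0.49 at 48 h, where Rxra turned to 0.03 and 0.06 under total-count scaling and with hepatocyte-gene UMIs as the library size. Each call of Nr1i3, Foxa2 and Foxa3 was lost without at least 1 section. Hnf4a was not called at any time.

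The male-biased list of 20 genes, which includes the 4 enzymes, was called lower in 13, 11 and 17 genes at 24, 36 and 48 h, beside 18.6%, 12.4% and 20.9% of all genes, and higher in 2, 1 and 0, beside 23.1%, 16.8% and 23.3%. Mup1, a major urinary protein, had log2 fold changes of -3.73, -6.03 and -6.17, and Ugt2b1, a glucuronosyltransferase, -3.96 at 24 h. Gstp1 rose by 1.30 at 24 h (0.80 and not called without 24 h A) and changed by -1.27 at 48 h, and Gstp2, at or under 2.86 CPM on average and named after its values were seen, was the other gene called higher at 24 h and the 1 called higher at 36 h. Mup and Gstp genes have near-identical copies, so their single levels are uncertain. Of 20 female-biased genes, 11 passed the filter on low counts. Of those 1, 5 and 3 were called higher at 24, 36 and 48 h, where 23.1%, 16.8% and 23.3% of all genes were, and 0, 0 and 1 lower, where 18.6%, 12.4% and 20.9% were. The 5 at 36 h were 1 without 36 h B, 2 without 0 h 2, and 3 without 0 h 3, 0 h 4 or 48 h C, and the 3 at 48 h were 1 without 0 h 2, 0 h 4 or 48 h C. Cyp2a4, a steroid hydroxylase with a near-identical copy, rose from 0.220 CPM on average to 5.96 at 24 h and 5.40 at 36 h, with log2 fold changes of 4.67 and 4.51, of which the former was 2.20 and not called without 24 h A. Fmo2, a flavin monooxygenase, was at 2.24 to 2.88 CPM at 0 h, 4.37 and 16.6 CPM at 36 h, and 4.80 to 10.4 CPM at 48 h. It was called higher at both later times, and without 36 h B the change at 36 h was 0.74 and not called. Abcd2, a peroxisomal transporter, rose by 1.37 at 36 h and 1.44 at 48 h. Tox, a nuclear factor under the level for naming, was higher by 1.17 at 36 h, which was 0.17 without 36 h B, and changed by -1.46 at 48 h. Cux2 was also among those called higher at 36 h. Of 62 calls given here for genes other than the members, 31 were lost without at least 1 section.

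Relatives of the members did not all move with them. In the elongase family Elovl2 changed by -1.80, -0.85 and -1.27 on the log2 scale at 24, 36 and 48 h and Elovl5 by -2.69, -2.55 and -2.16. Elovl6 changed by -1.67 at 48 h, and Elovl7, a gene of low counts chosen after its values were seen, by 4.23, 4.30 and 4.47 from an average of 0.170 CPM. Hsd3b2 and Hsd3b3 changed by -2.84 and -2.14 at 24 h, and Hsd3b2 by -0.84 at 48 h. In the Cyp4a cluster Cyp4a14, a target of fatty acid sensing, was not called at any time, at 45.9 CPM on average at 0 h and 138, 73.9 and 63.9 CPM afterwards. Cyp4a10 and the scarce Cyp4a32 were called at 48 h only, at -2.19 and -2.22, and both calls were lost without any of several sections, at -2.19 to -1.89 and -2.36 to -1.80. Stat5a, the close relative of Stat5b, changed by -0.64 at 36 h, and by -0.35 without 36 h B. At 24 h Stat2 changed by 0.57 and Stat6 by -0.28, the latter turning to 0.05 and 0.32 under total-count scaling and with hepatocyte-gene UMIs as the library size. Socs5 was higher by 1.09, 0.62 and 0.86. Socs4 changed by -0.46 at 36 h and -0.44 at 48 h, the latter turning to 0.09 and 0.11 under the same scalings. The calls of Elovl6, of Hsd3b2 at 48 h, of Stat5a, Stat6 and Stat2 and of Socs4 and Socs5 at 36 h were each lost without at least 1 section.

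Across 11 sections, the 5 genes of at least 5 CPM on average whose centred log2 profile lay closest to that of Elovl3, by root mean square difference, were Slc1a2 (1.08), Cyp4a12b (1.32), Mup11 (1.32), Mup16 (1.33) and Ugt2b38 (1.49). For Hsd3b5 they were Ugt2b38 (0.80), Nudt7 (0.96), Slc22a28 (1.02), Gm35986 (1.18) and Scd1 (1.19). For Socs2 they were Rgs3 (0.77), 3110082I17Rik (0.82), Cish (0.90), Ifi47 (0.91) and Rapgef4 (0.92). For Cish they were Tubb2a (0.83), Irs2 (0.85), Clpx (0.87), Crem (0.87) and Arntl (0.88).

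Position along the lobule was read from 19 central and 11 portal genes of the study, none of them a member. Elovl3, Mup11, Sult2a8, Cyp2d9 and Mup20 had been on the study's lists and were taken off as dependent on growth hormone. The paper derived its lists from spatial data, so the lean of Elovl3 at 0 h is not an independent result. Equal sets of spots leaning most to the central and to the portal list (486 to 1120 of each per section) were compared within each section. At 0 h, 6 members were higher in central-leaning spots and 1, Cish, was lower, against 18.3% of 13798 genes called in either direction. Elovl3 had the steepest difference, with log2 ratios of 1.41, 1.26 and 1.18 in the 3 sections (fitted 1.28, SE 0.0407, edgeR adjusted p = 1.64e-26). With spots ordered from portal to central and cut into 5 equal groups, it averaged 210.1, 279, 371, 470 and 608 UMIs per 1000000 of a group's total over the 3 sections. Socs2 (0.73), Cyp4a12b (0.67), Hsd3b5 (0.59), Cyp4a12a (0.53) and Ghr (0.31) leaned the same way in all 3 sections, Cish the other way (-0.37), and Stat5b was not called (0.08). With hepatocyte-gene UMIs as the library size Cish was at 0.06 and Stat5b was called at 0.51. Alb was itself lower in central-leaning spots, at -0.65. The check genes Glul, Oat and Slc1a2, known from the central rim and not used to place spots, were higher by 1.90, 2.29 and 2.35.

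After injury the difference between zones was called lower than at 0 h for 3 members at 24 h, 2 at 36 h and 7 at 48 h and higher for none, where 14.3%, 10.6% and 20.8% of genes were called in either direction. Ghr, central-leaning in all 3 uninjured sections (0.28, 0.30 and 0.34), was at 0.0025 and 0.000485 at 24 h, at -0.18 and -0.12 at 36 h and at -0.28, -0.22, -0.27 and -0.24 at 48 h, without overlap between 0 h and any later time. Its change of -0.56 at 48 h was called (SE 0.0486, edgeR adjusted p = 6.49e-12), as were -0.46 at 36 h and -0.30 at 24 h, though the last was lost under total-count scaling at -0.15, with hepatocyte-gene UMIs as the library size at -0.22 and without 24 h A at -0.28. Elovl3 kept its central lean at 24 h (1.18 and 1.12) and 36 h (0.89 and 0.96) at a far lower level and had less of it at 48 h (0.59, 0.51, 0.22 and 0.26), a change of -0.94. Cyp4a12b turned to the portal side in all 4 sections at 48 h, by -0.35 to -1.43 (change -1.36), on 9 to 61 UMIs in central-leaning spots. Socs2 lost its lean, by -0.70 at 24 h and -0.74 at 48 h, and Hsd3b5 by -0.58 and -0.34. Stat5b changed by -0.32 at 36 h and -0.28 at 48 h and Cyp4a12a by -0.48 at 48 h, whereas Cish was called at no time. Neither change of Stat5b was called under total-count scaling (-0.23 and -0.17), nor was that at 36 h without 36 h A (-0.05), 0 h 3 or 0 h 4 (both -0.30). The call of Cyp4a12a was lost under total-count scaling (-0.37), with smaller sets of spots (-0.47), and without 48 h A (-0.51), 48 h C (-0.49) or 48 h D (-0.35). Hsd3b5 was at 0.03 at 24 h without 24 h A and at -0.19 at 48 h without 48 h D, neither called. Some differences were wider than at 0 h without a call. Cyp4a12a stood at 0.96 at 24 h, Cyp4a12b at 0.95 at 24 h and 0.85 at 36 h, Hsd3b5 at 0.68 at 36 h and Cish at -0.46 at 48 h. The values of Cyp4a12b rest on 17 to 51 UMIs per set of spots at 24 h and 2 to 59 at 36 h. The change of Cyp4a12a at 24 h was 0.42 (edgeR adjusted p = 0.0811). It was called at 0.57 under total-count scaling and at 0.42 to 0.62 when any of 6 sections was left out (0 h 3, 24 h B, 36 h A, 36 h B, 48 h B and 48 h D), and was 0.10 without 24 h A.

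**Figure D5:**
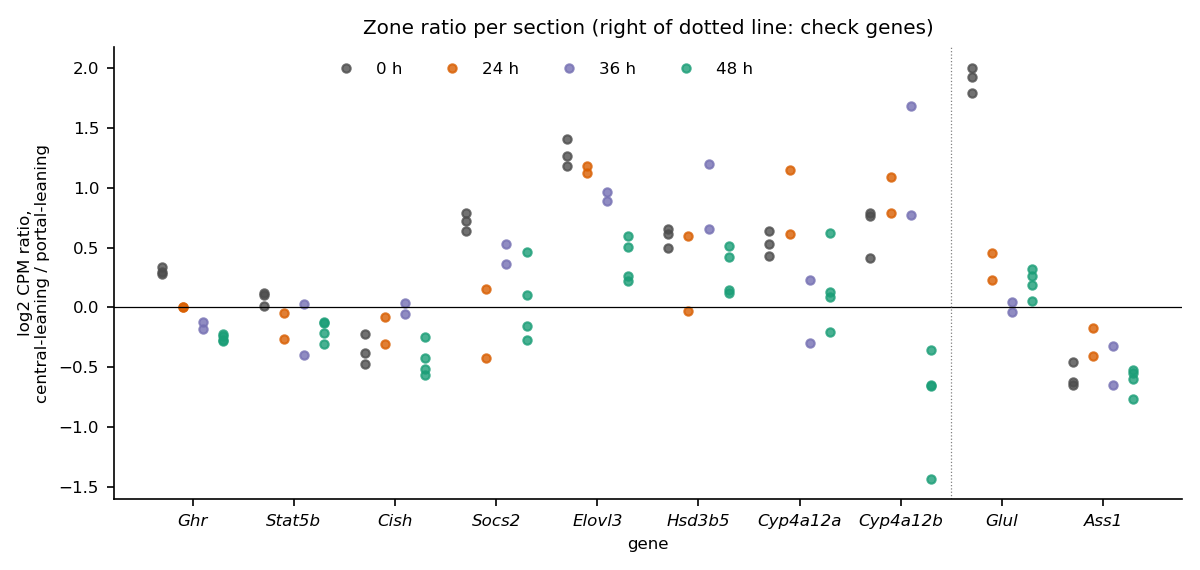
Log2 ratio of CPM in central-leaning to portal-leaning spots (y axis), a point per section, coloured by time, for the 8 genes and for Glul and Ass1, which mark the central and portal sides. Ghr passes from above 0 at 0 h to below 0 at 36 h and 48 h, Elovl3 declines at 48 h, and Glul drops from 1.79 or more at 0 h to 0.455 or less after injury.

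The central check genes differed less between zones after injury, and the portal gene Ass1 did not at 48 h. Glul, at 1.90 at 0 h, was at 0.30, -0.01 and 0.21 at 24, 36 and 48 h, and Oat at 0.80, 0.68 and 0.72. Ass1 went from -0.58 to -0.29, -0.48 and -0.61, with sections at -0.65 to -0.46 at 0 h and -0.76 to -0.52 at 48 h. Across spots, central and portal scores correlated at -0.587 to -0.516 within sections at 0 h and at -0.325 to 0.228 within injured sections. The part of these shifts in the members' changes was not tested. Within the injured times alone, 4, 3 and 6 members were called in either direction at 24, 36 and 48 h, where 21.4%, 10.6% and 32.2% of genes were. Elovl3 was called higher in central-leaning spots each time, at 1.17, 0.92 and 0.34, though at 36 h not without either section of that time. The others called higher were Cyp4a12a and Cyp4a12b at 24 h (0.96 and 0.95) and Hsd3b5 at 36 h and 48 h (0.68 and 0.25). The members called lower there, Cish at 24 h (-0.22), Ghr at 36 h (-0.15) and Ghr, Cish, Stat5b and Cyp4a12b at 48 h (-0.25, -0.46, -0.20 and -0.69), numbered 0 at each time with hepatocyte-gene UMIs as the library size. The call of Cish at 24 h was lost at -0.07 without 24 h A and that of Hsd3b5 at 48 h at 0.16 without 48 h B.

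Spots touching a hepatocyte-low spot were compared with spots at least 3 steps away in the 6 injured sections with at least 20 spots of both kinds (24 h A, 36 h A and 48 h A to D). A hepatocyte-low spot is one whose hepatocyte score lies under the 1st percentile of 0 h spots. Such spots made up 0.620% to 1.49% of 0 h sections and 2.01% to 5.63% of 48 h sections. At 24 h and 36 h their share of 0.147% to 0.992% was within or below the range of uninjured sections. Of the 8 members 7 were called beside them, all of them lower, where 41.5% of 13161 genes were called in either direction. Ghr was at 81.8, 168, 118, 94.4, 92.4 and 105 CPM beside such spots and at 100, 176, 181, 130, 139 and 162 CPM far from them, lower in 6 of 6 sections (log2 difference -0.51, SE 0.0579, edgeR adjusted p = 2.79e-08). Cish differed by -0.43, Hsd3b5 by -0.38, Socs2 by -0.30, Stat5b by -0.28, Elovl3 by -0.46 and Cyp4a12b by -0.58, and Cyp4a12a by -0.03, which was not called. Cish and Stat5b were lower in every section, Cish in 36 h A on 1 UMI beside such spots. Apart from Ghr, the other members were not. In 24 h A, Elovl3 was at 16.6 CPM beside such spots against 10.1 CPM far from them, and Cyp4a12b at 3.74 against 2.24. In 36 h A, Elovl3, Cyp4a12b, Socs2 and Hsd3b5 were higher beside them, the first 3 on 2 UMIs each. Cyp4a12b had 1 to 16 UMIs beside such spots. The hepatocyte genes Alb, Ttr, Hp, Hnf4a and Apoa1 were lower there too, at -0.56, -0.45, -0.52, -0.34 and -0.27. Cyp2e1 was higher, by 0.17. These 6 genes make up the score that defines hepatocyte-low spots. The mesenchymal gene Col1a1 and the phagocyte gene Cd68 were higher, by 1.01 and 0.83. Of their lists only Dcn (0.02) and Cd5l (0.34) were not called. The central genes Glul and Oat were also higher, by 0.40 and 0.48, and the portal gene Ass1 was lower, at -0.68. The part of zone in these differences was not tested. With the UMIs of Alb, Ttr, Apoa1 and Hnf4a as the library size, 0 members were called lower and Ghr differed by 0.01. The call of Elovl3 was lost at -0.25 without 48 h D and at -0.37 without 48 h C, that of Socs2 at -0.21 without 48 h D, and that of Cyp4a12b without any of the 4 sections at 48 h. With a 5th percentile for hepatocyte-low spots, Elovl3 at -0.20 and Hsd3b5 at -0.14 were not called and the other 5 were. Under total-count scaling Ghr (-0.30), Cish (-0.22) and Hsd3b5 (-0.17) were called, and Elovl3 (-0.24), Cyp4a12b (-0.37), Socs2 (-0.09) and Stat5b (-0.06) were not.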

How the data were processed

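The authors deposited, per section, unfiltered UMI counts of 31053 genes over 4992 barcodes, made with Space Ranger 1.0.0 on mm10. Here, spots under tissue that passed the study's limits (800 genes or more, mitochondrial share up to 20%) were summed per section. In R 4.3.3, edgeR 4.0.16 fitted all 11 sections together (filterByExpr, TMM, robust quasi-likelihood, two-sided, adjusted over all tested genes). The common biological coefficient of variation was 0.194. Sums per zone and beside hepatocyte-low spots were fitted with section as a term, so their p-values rest on differences within sections, and spots were scored after thinning to 2000 UMIs. DESeq2 1.42.0, total-count scaling, library sizes from hepatocyte genes, other filters and leaving out each section were alternatives. The code was tested on simulated data. Coordinates are from GENCODE M21.

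The 8 genes, the lists and the tests were chosen with earlier results of these data known, so no list is independent evidence. All members were named, and from each other list up to 3 genes called higher and 3 called lower per time with the largest change and a mean of at least 5 CPM in a group, besides relatives of the members. Some listed items are not reported here.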

Additional observations from a re-analysis of the deposited data

Results flagged for a closer look

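Elovl3 in 48 h D lay far from the other sections of its group, at 71.1 CPM against 10.3 to 12.3 CPM in 48 h A to C, so that the gap to the nearest section took up 0.966 of the group's range. Groups of 4 sections were examined 24 times and 1 was this uneven, where chance gives about 1 in 20. Hsd3b5, Socs2 and Cish were also at their highest for 48 h in that section.

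The central against portal difference changed between uninjured and injured liver, tested as an interaction in the edgeR fit, for 7 of the members. At 24 h the log2 changes were -0.30 for Ghr, -0.58 for Hsd3b5 and -0.70 for Socs2. At 36 h they were -0.46 for Ghr and -0.32 for Stat5b. At 48 h they were -0.48 for Cyp4a12a, -1.36 for Cyp4a12b, -0.94 for Elovl3, -0.56 for Ghr, -0.34 for Hsd3b5, -0.74 for Socs2 and -0.28 for Stat5b. The central check gene Glul went from 1.90 at 0 h to 0.30 or less later, while the portal gene Ass1 was at -0.58 at 0 h and -0.61 at 48 h, and the part of these markers in the changes was not tested.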

How the results depend on the processing

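Of the members' log2 values over time, 476 of 528 kept their direction and their side of the threshold when a section was left out, and 349 of 384 did under the other settings. Values that were not called to begin with are counted too, as are sections outside the comparison, so these are not shares of calls kept. For zones the counts were 576 of 616 and 129 of 168, and beside hepatocyte-low spots 39 of 48 and 8 of 24. Calls given for other genes held in 551 of 682 values with a section left out and in 374 of 434 otherwise. The number of male-biased genes called lower ranged over 9 to 15, 6 to 14 and 12 to 18 at 24, 36 and 48 h. Smaller lists moved by more. Signalling genes called lower ranged over 1 to 4 at each time and those called higher over 4 to 9, 1 to 8 and 4 to 8. Growth targets called lower ranged over 1 to 3, 1 to 4 and 0 to 3, female-biased genes called higher over 0 to 2, 1 to 6 and 1 to 4, and transcription factors called higher over 0 to 5 at 36 h and 0 to 2 at 48 h and those called lower over 0 to 2 and 0 to 5. Where a value below differs from the report, the cause was not tested.

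The median log2 fold change of all genes moved from 0.05, 0.05 and 0.01 to 0.37, 0.49 and 0.54 under total-count scaling, and to 0.65, 0.47 and 0.56 with hepatocyte-gene UMIs as the library size. Under total-count scaling Cish at 24 h turned to 0.12 and Socs2 at 48 h to 0.18, and between 24 h and 36 h Cyp4a12a was at 0.067 and Stat5b at 0.052. In that setting 0 members were called lower at 48 h than at 24 h, 0 were lower in central-leaning spots at 24 h and at 36 h, 1 had a lower zone difference at 36 h than at 0 h, and 3 were lower beside hepatocyte-low spots. The zone values of Stat5b at 24 h (0.025), Cish at 36 h (0.12) and Socs2 at 48 h (0.14) turned, as did the changes in zone difference of Elovl3 at 24 h (0.028) and Cish at 48 h (0.029) and Cyp4a12a beside hepatocyte-low spots (0.18). Among other genes Stat6 at 24 h (0.046) and Sh2b1 (0.18), Rxra (0.035), Igf1 (0.016) and Socs4 (0.089) at 48 h turned.

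With hepatocyte-gene UMIs as the library size, Cish at 24 h was at 0.41 and Socs2 at 48 h at 0.22, and 0 members were called higher at 36 h than at 24 h and 0 in either direction between 24 h and 48 h. In central-leaning spots 0 members were lower at 0, 24, 36 or 48 h, and 8, 4 and 5 were higher at 24, 36 and 48 h. Cish turned to 0.061, 0.30 and 0.28 at 0, 24 and 36 h, Stat5b to 0.34, 0.092 and 0.13 at 24, 36 and 48 h, Ghr to 0.16 and 0.078 at 36 and 48 h, and Socs2 to 0.34 at 48 h. Beside hepatocyte-low spots 0 members were lower, with Elovl3 at 0.051, Hsd3b5 at 0.13, Cyp4a12a at 0.49, Ghr at 0.0083, Socs2 at 0.21, Cish at 0.087 and Stat5b at 0.24. Igf1 turned to 0.025 at 24 h and 0.036 at 48 h, Stat6 to 0.32 at 24 h, and Sh2b1, Rxra and Socs4 to 0.20, 0.061 and 0.11 at 48 h.

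Without the filter on low counts, 0 members were called lower at 36 h or at 48 h than at 24 h. With only the 24 h and 36 h sections in the fit, 0 members were called in either direction. DESeq2 called 2 members higher at 48 h than at 24 h. With smaller central and portal sets of spots, 0 members were lower at 24 h and Socs2 was at -0.027. With a 5th percentile for hepatocyte-low spots Cyp4a12a beside hepatocyte-low spots was at 0.039, and with those spots and their neighbours left out Cyp4a12b between 36 h and 48 h was at 0.057.

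Whether the section letters pair the samples is not known. Deviations from the group means correlated at 0.287 between 24 h A and 36 h A but at -0.165 and -0.09 between those and 48 h A. Only sections A and B of each time entered these values, which is too few to settle it. With the letter as a replicate block, 0 members were called in either direction between 24 h and 36 h, and Socs2 between 24 h and 48 h was at -0.81. Sections A and B without the block also gave 0 calls in either direction from 24 h to either later time, with Socs2 at -0.74 and Hsd3b5 at -0.83 between 24 h and 48 h and Hsd3b5 at -0.66 between 36 h and 48 h.

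Leaving out a section gave these ranges where a sign turned. Against 0 h, Cish at 24 h ranged from -0.47 to 0.013 and Socs2 at 48 h from -1.54 to 0.28. Between 24 h and 36 h Cyp4a12a ranged from -1.44 to 0.67, Cyp4a12b from -2.41 to 0.69, Hsd3b5 from -4.02 to 3.51 and Stat5b from -0.79 to 0.44. Between 36 h and 48 h Cyp4a12b ranged from -0.96 to 2.11, Ghr from -0.36 to 0.012, Hsd3b5 from -0.96 to 4.23 and Stat5b from -0.27 to 0.93. Between 24 h and 48 h Hsd3b5 ranged from -1.15 to 3.93 and Socs2 from -0.81 to 1.34. For zones, the ranges at 24 h were -0.0069 to 0.0041 for Ghr, -0.025 to 0.60 for Hsd3b5 and -0.42 to 0.16 for Socs2, and the change of Hsd3b5 from 0 h ranged from -0.61 to 0.030. At 36 h Cish ranged from -0.051 to 0.041, Cyp4a12a from -0.29 to 0.23 and Stat5b from -0.39 to 0.030, and at 48 h Cyp4a12a from -0.0061 to 0.18 and Socs2 from -0.087 to 0.18. Beside hepatocyte-low spots Cyp4a12a ranged from -0.066 to 0.046. Members called higher or lower at 36 h or at 48 h than at 24 h ranged from 0 to 1. In central-leaning spots those lower at 24 h and at 36 h ranged from 0 to 1, those higher at 36 h from 0 to 2 and those higher at 48 h from 1 to 2. Those with a lower zone difference than at 0 h ranged from 1 to 3 at 24 h and at 36 h, and those lower beside hepatocyte-low spots from 4 to 7. Each time but 48 h has 3 sections or fewer, which limits what the fit could call for genes that vary as much as Hsd3b5 and Socs2.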
